A study of Rattus norvegicus with 8 samples.

Results

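The miR-29 family was followed in kidney small RNA libraries from 4 rats treated with aristolochic acid (AA) and 4 control rats (CTL). Its rows were taken by name, as every row called mir-29a, mir-29b or mir-29c with any arm suffix and in any letter case, and 8 of the 620 miRNA rows were found. They are rno-miR-29a, rno-miR-29b, rno-miR-29c, the opposite arms rno-miR-29a*, rno-miR-29c* and rno-miR-29b-2*, and the rows rno-mir-29b-2* and rno-mir-29c* with a lower-case name. No row for the opposite arm of mir-29b-1 was analysed here. All animals were male Big Blue transgenic rats on the Fisher 344 background, which carry a shuttle vector used to score mutations, and they were 6 weeks old at the start. The AA group was gavaged with the sodium salt of AA at 10 mg/kg, 5 times a week for 12 weeks, and the CTL rats received 0.9% sodium chloride equally often by the same route. The AA given was a mixture of AAI and AAII. Kidneys were taken 1 day after the last dose, and each library came from 1 rat and a piece of whole kidney. In every sample, the characteristics field names the tissue as liver, while the protocols and the study's methods name the kidney.

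miRNAs are cut from hairpin precursors, and the arm that is kept in the silencing complex pairs through its seed, bases 2 to 8, with sites in messenger RNAs and lowers their output. miR-29a, miR-29b and miR-29c are best known for repressing genes of the extracellular matrix, among them the fibrillar collagens Col1a1, Col1a2 and Col3a1, elastin and fibrillin. In kidney and other organs, TGF-beta signalling is known to lower miR-29 in cells that lay down matrix. The messenger RNAs and proteins of these targets were not analysed here.

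The mature sequences are shown because the members differ by so few bases that the assignment of reads between them bears on every value. They are from RefSeq (rat assembly GRCr8), written 5′ to 3′, with the seed in capitals. The deposited names without a star were matched to the 3p arms and the starred names to the 5p arms.
rno-miR-29a: uAGCACCAucugaaaucgguua
rno-miR-29b: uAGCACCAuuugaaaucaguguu
rno-miR-29c: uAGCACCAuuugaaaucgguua
rno-miR-29a*: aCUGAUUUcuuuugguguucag
rno-miR-29c*: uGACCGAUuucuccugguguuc
rno-miR-29b-2*: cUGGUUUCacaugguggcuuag

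The 3 mature members share the seed AGCACCA, which no other sequence among the 692 distinct mature rat sequences of RefSeq carries at bases 2 to 8. Counted from 1 at the 5′ end, with the base of the first-named miRNA written first, miR-29a and miR-29c differ by the single substitution C10U. miR-29c and miR-29b differ by G18A, U21G and A22U over the 22 bases compared, and miR-29b has 1 more base at its 3′ end. The last 6 bases of miR-29b, AGUGUU, end 2 of these 692 RefSeq sequences, the other being that of miR-92b-5p. This end has been described as a signal that brings miR-29b into the nucleus. The 3 opposite arms have 3 different seeds, so that they are not part of the shared target group. The number of mismatches allowed when reads were mapped to known rat miRNAs was not found in the sources used here, and reads that lack or misread the base at position 10 cannot be assigned between miR-29a and miR-29c with certainty.

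The family lies in 2 clusters of 2 hairpins each. On GRCr8, Mir29a lies at chr4:60617955-60618042 and Mir29b1 at chr4:60618334-60618414, both on the minus strand and 291 bases apart. Mir29b2 lies at chr13:109098831-109098911 and Mir29c at chr13:109099359-109099446, both on the plus strand and 447 bases apart. The 2 hairpins that make miR-29b are shown with both arms in capitals, the 5p arm first, since they carry the same mature sequence on different chromosomes.
Mir29b1: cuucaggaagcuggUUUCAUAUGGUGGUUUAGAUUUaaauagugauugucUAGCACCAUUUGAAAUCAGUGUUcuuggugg
Mir29b2: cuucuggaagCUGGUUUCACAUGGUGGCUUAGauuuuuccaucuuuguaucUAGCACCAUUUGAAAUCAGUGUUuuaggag

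The 3p arms of both hairpins are the same 23 bases, and the annotated 5p arms start 4 bases apart in a similar stretch, differing at 2 of the 18 bases they share at that shift. Reads of miR-29b therefore cannot be divided between chromosome 4 and chromosome 13, and whether reads of the mir-29b-1 5p arm were counted under rno-miR-29b-2* was not tested. miR-29a and miR-29a* stand for the chromosome 4 cluster in what follows, and miR-29c, miR-29c* and, by its name, miR-29b-2* for the chromosome 13 cluster.

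The libraries held 13412373 to 15616670 reads on known miRNAs. The paper's text gives fewer reads on known rat miRNAs for all kidneys together than any single library holds here. The total it gives for all kidneys lies within the range of these single libraries. How these numbers relate was not found in the sources used here. No difference between the mean totals of the groups was detected (p = 0.771 by a two-sided exact permutation test). Of the kidney tubule list (members of the miR-30 and miR-200 families, and miR-192, miR-194 and miR-204), all 11 miRNAs were present, 2 fell in AA rats and 0 rose, with a summed level of 174844 to 242816 CPM (counts per 1e6 reads of the TMM-scaled library size) in the CTL libraries and 135593 to 190624 in the AA libraries. Those that fell were miR-194 (log2 fold change -0.73, adjusted p = 0.0499 from edgeR, a call lost in 8 of 16 alternative fits) and miR-204. The summed level of the liver miRNAs miR-122 and miR-122* was 4.34 to 54.7 CPM in the CTL group and 0.696 to 539 in the AA group, the highest in AA2. Of the leukocyte list, 3 of the 6 miRNAs tested (miR-142-3p, miR-146b and miR-223) were higher in the AA group and none lower, with the miR-223 call lost in 5 of 16 alternative fits, and its summed level was 2468 to 3557 CPM in the CTL group and 4259 to 8104 in the AA group. Of the stromal and smooth muscle list, 1 of 5 was higher and none lower. Its sums were 177510 to 237837 CPM in the CTL libraries and 143522 to 184357 in the AA libraries. miR-143, the largest part of these sums, had means of 198650 CPM in CTL rats and 154689 CPM in AA rats. It was not called, at a log2 fold change of -0.36. miR-145, miR-199a-5p, miR-199a-3p and miR-214 stood at 0.27, 0.80, 0.65 and 0.50, with only miR-199a-3p called. The sums therefore follow miR-143 and do not stand for the list. Of all 367 miRNAs tested, 16.3% were called by edgeR in either direction (adjusted p under 0.05). The tubule and stromal counts are near that share. The part of these differences between the groups in the values below was not tested. In a whole-tissue library, fewer cells of a type and less of a miRNA per cell cannot be told apart.

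None of the miR-29 members passed the test between AA and CTL rats. Of the 8 rows, 6 had at least 10 reads in at least 4 libraries and were tested, and 0 of these 6 had an adjusted p-value under 0.05 (edgeR's quasi-likelihood test over 367 miRNAs with Benjamini-Hochberg adjustment). Over all 367 miRNAs the share called was 16.3%, with 38 higher and 22 lower in AA rats. That split was 54 to 14 with total counts in place of TMM, and 27 to 25 without the libraries numbered 4, a choice made after the data were seen. At an unadjusted p under 0.05 there was 1 member, rno-miR-29a*, and the DESeq2 Wald test also called 0 members. The log2 fold changes of the 6 members ran from -0.45 to 0.50, and 3 lay above and 3 below 0. Their median was -0.00042, where the median over all tested miRNAs was 0.06. The AA libraries were all above or all below the CTL libraries for 1 of the 6 members, against 24.3% of all tested miRNAs, so that this count is near the background.

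rno-miR-29a, the most abundant member, had 4750, 4681, 4766 and 3795 CPM in the libraries CTL1 to CTL4 and 4259, 4784, 5307 and 4186 in AA1 to AA4. The groups overlapped, with AA2 just above the CTL range, AA3 further above it and CTL4 the lowest of all. The means were 4498 ± 470 and 4634 ± 522 CPM (SD, n = 4 each), which is a fold change of 1.03 with a 95% interval of 0.822 to 1.29 (adjusted p = 0.86 from edgeR). By level it was the 22nd of the 620 rows in the CTL group, between miR-152 at 4681 and let-7i at 4373 CPM, and neither neighbour differed from it by more than its SD.

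rno-miR-29b, which both clusters make, had 1332, 1362, 1374 and 919 CPM in CTL1 to CTL4 and 1265, 1669, 1681 and 1149 in AA1 to AA4. AA2 and AA3 lay above every CTL library, while AA1 and AA4 lay within the CTL range. From 1247 ± 219 to 1441 ± 275 CPM (SD, n = 4 each) the fold change was 1.16, with a 95% interval of 0.860 to 1.55 (adjusted p = 0.48 from edgeR). It ranked 39th in the CTL group, next to miR-203 and miR-22 at 1416 and 1234 CPM, both within its SD.

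rno-miR-29c had 454, 575, 536 and 462 CPM in CTL1 to CTL4 and 404, 566, 561 and 328 in AA1 to AA4. AA1 and AA4 were the lowest of the 8 libraries, and AA2 and AA3 lay within the CTL range. The means were 507 ± 58.8 and 465 ± 118 CPM (SD, n = 4 each), a fold change of 0.917 with a 95% interval of 0.669 to 1.26 (adjusted p = 0.70 from edgeR). It ranked 66th, between miR-100 at 550 and miR-32 at 503 CPM, again both within its SD.

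The order of the mature members was the same in every library. The lowest value of rno-miR-29a, 3795 CPM, lay above the highest of rno-miR-29b, 1681, and the lowest of rno-miR-29b, 919, above the highest of rno-miR-29c, 575. Of the reads of the 3, rno-miR-29a took 72.0% ± 1.18 in the CTL group and 71.1% ± 2.44 in the AA group, rno-miR-29b 19.8% ± 1.39 and 21.9% ± 1.48, and rno-miR-29c 8.15% ± 0.892 and 7.02% ± 0.970 (SD, n = 4 each). These are shares of reads, and differences between the sequences in gel selection, ligation or PCR were not tested. Their summed level was 6251 ± 719 CPM in the CTL group and 6540 ± 893 in the AA group (SD, n = 4 each), with ranges of 5176 to 6676 and 5662 to 7550 that overlap. As a share of all reads, without TMM scaling, the sum was 0.585% ± 0.0961 and 0.707% ± 0.136 (SD, n = 4 each). Leaving TMM out also moved the median log2 fold change of all tested miRNAs from 0.06 to 0.28. The difference of the summed level on the log2 scale went from 0.06 to 0.27. With TMM the difference of the summed level turned below 0 when CTL3, CTL4, AA1, AA2 or AA3 was left out, down to -0.040 without AA2.

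**Figure D1:**
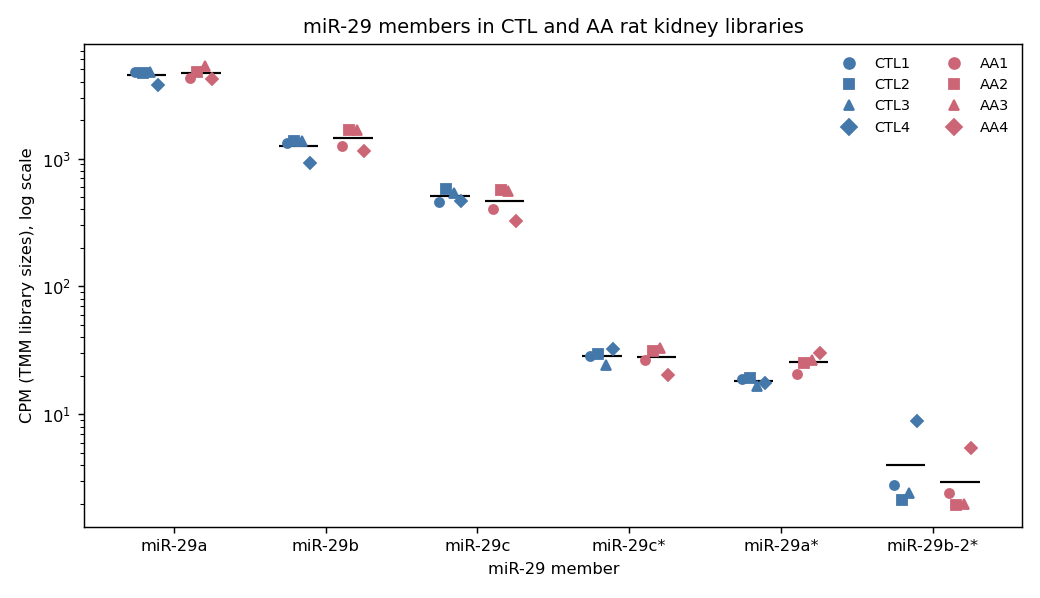
CPM on a log axis (TMM-scaled library sizes) of the 6 tested miR-29 members in the 4 CTL libraries (blue) and the 4 AA libraries (red). Each symbol is 1 library, its shape gives the library number, and bars mark group means. The groups overlap for every member except miR-29a*, and the libraries numbered 4 stand highest for miR-29b-2*.

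The opposite arms were far less abundant, and rno-miR-29a* was the only one of the 6 tested members whose groups did not overlap. Its levels were 18.7, 19.2, 16.6 and 17.6 CPM in CTL1 to CTL4 and 20.5, 25.3, 26.5 and 29.9 in AA1 to AA4. Every AA library lay above every CTL library, with AA4 highest and AA1 close to the CTL range. The means were 18.04 ± 1.17 and 25.6 ± 3.90 CPM (SD, n = 4 each), a fold change of 1.42 with a 95% interval of 1.06 to 1.89. Its log2 fold change of 0.50 (SE 0.19) had an unadjusted p of 0.023 and an adjusted p of 0.10 from edgeR, so that it was not called. With total counts in place of TMM it was called (log2 fold change 0.72, adjusted p = 0.038 from edgeR), in a scaling that raises the median miRNA as given above. The libraries held 216 to 505 reads of it.

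rno-miR-29c* had 28.4, 29.4, 24.4 and 32.6 CPM in CTL1 to CTL4 and 26.7, 31.1, 33.2 and 20.4 in AA1 to AA4. The AA libraries spread over a wider range that took in the whole CTL range. The means were 28.7 ± 3.39 and 27.8 ± 5.63 CPM (SD, n = 4 each), a fold change of 0.970 with a 95% interval of 0.703 to 1.34 (adjusted p = 0.90 from edgeR). rno-miR-29c* was above rno-miR-29a* in 7 of the 8 libraries, the exception being AA4, although its mature partner is the lower of the pair.

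rno-miR-29b-2*, named for the chromosome 13 copy of miR-29b, had 37, 29, 39 and 108 reads in CTL1 to CTL4 and 31, 36, 29 and 91 reads in AA1 to AA4. In CPM these were 2.77, 2.13, 2.42 and 8.80 in the CTL group and 2.40, 1.95, 1.995 and 5.39 in the AA group. The library numbered 4 was highest by a wide margin in both groups, and the other libraries lay close together. The means of 4.03 ± 3.19 and 2.93 ± 1.65 CPM (SD, n = 4 each) rest on these libraries, and the log2 fold change of -0.45 (SE 0.52, adjusted p = 0.58 from edgeR) turned to 0.27 without CTL4. Without AA4 it was -1.07. Between libraries of the same number the AA value was lower in all 4 pairs, although the labels do not say that the numbers pair the rats. Over the libraries numbered 1 to 3 the means were 2.44 ± 0.321 and 2.11 ± 0.245 CPM (SD, n = 3 each) and the log2 fold change was -0.26. The spread of rno-miR-29b-2* over the CTL rats was 79.1% of its mean, where the other 5 members lay between 6.46% and 17.6% and the median over all tested miRNAs was 21.7%.

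The row rno-mir-29b-2* with a lower-case name held 1 read, in CTL2, and rno-mir-29c* held 1 read, in AA4. Both were at 0 in the other 7 libraries, and a count of 0 allows up to 3 reads, or 0.163 to 0.244 CPM depending on the library. Of all 620 rows, 61 carry a lower-case name, all of them starred, and their sequences were not given.

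How the members move against each other can be read from ratios within a library, which need no scaling. Between the clusters, the log2 ratio of miR-29a to miR-29c was 3.39, 3.02, 3.15 and 3.04 in CTL1 to CTL4 and 3.40, 3.08, 3.24 and 3.68 in AA1 to AA4. On average rno-miR-29a had 8.88 reads for each read of rno-miR-29c in the CTL group and 10.2 in the AA group. The difference of 0.20 (SE 0.15) on the log2 scale did not pass the exact permutation test (two-sided, p = 0.229, adjusted p = 0.343 over the 6 ratios examined). AA2 and AA3 lay within the CTL range, AA1 was level with CTL1, the highest CTL library, and AA4 lay above them. Without AA4 the difference was 0.090, and without both libraries numbered 4 it was 0.052.

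The log2 ratio of miR-29b to miR-29c was 1.55, 1.24, 1.36 and 0.99 in CTL1 to CTL4 and 1.65, 1.56, 1.58 and 1.81 in AA1 to AA4. Each AA library lay above each CTL library, although CTL1 at 1.55 and AA2 at 1.56 were nearly level. Its mean was 0.36 higher in the AA group (SE 0.13; exact permutation test, two-sided, p = 0.0286, which is the smallest p that 4 against 4 rats allow). Adjusted over the 6 ratios the p was 0.0857, so that it did not pass. At the smallest p, a ratio can pass this adjustment only if most of the 6 ratios share that p. The adjusted test therefore could not decide on this ratio by itself. The libraries numbered 4 were the lowest of the CTL group and the highest of the AA group here, and without them the difference was 0.21. For miR-29b to miR-29a, the groups overlapped and the difference was 0.17 (SE 0.10; exact permutation test, p = 0.171, adjusted p = 0.343).

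**Figure D2:**
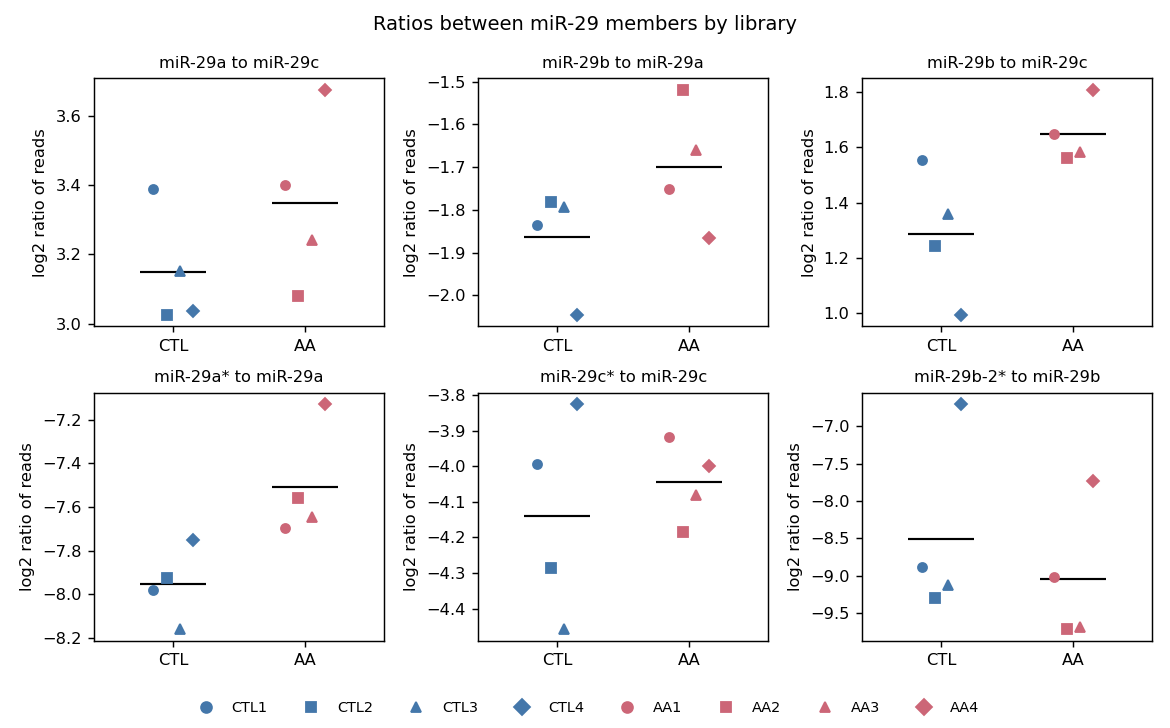
Log2 ratio of reads between miR-29 members (vertical axes, each with its own range) in the CTL and AA libraries, with 1 symbol per library and bars at the group means. AA and CTL libraries do not overlap for miR-29b to miR-29c and for miR-29a* to miR-29a, and they overlap for the other 4 ratios.

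The ratio of reads between the arms differed widely between the hairpins. Differences between the sequences in gel selection, ligation, PCR or read assignment were not tested. In the CTL group there were 248 reads of rno-miR-29a for each read of rno-miR-29a*, but 17.6 reads of rno-miR-29c for each read of rno-miR-29c*. In every library the opposite arm had more reads per mature read for the miR-29c hairpin than for the miR-29a hairpin. The difference was 8.73-fold to 15.9-fold with a median of 12.7-fold. For miR-29b, where the mature reads come from both hairpins, there were 363 reads for each read of rno-miR-29b-2* in the CTL group and 527 in the AA group. Over the libraries numbered 1 to 3 these were 550 and 713, since the libraries numbered 4 held the most reads of the opposite arm.

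The arm ratios were then compared between AA and CTL rats. On the log2 scale, miR-29a* to miR-29a was -7.98, -7.93, -8.16 and -7.75 in CTL1 to CTL4 and -7.70, -7.56, -7.64 and -7.13 in AA1 to AA4. All AA libraries were above all CTL libraries, but AA1 and CTL4 lay close to each other. The mean was 0.45 higher in the AA group (SE 0.16; exact permutation test, two-sided, p = 0.0286, adjusted p = 0.0857), or 182 mature reads for each opposite-arm read. As for miR-29b to miR-29c, the unadjusted p is the smallest possible, and the adjusted test could not decide. Without the libraries numbered 4 the difference was 0.39, and with any single library left out it ran from 0.32 to 0.52. The arm ratio of miR-29c was 0.10 higher in the AA group (SE 0.15; exact permutation test, p = 0.514, adjusted p = 0.514) and that of miR-29b-2* to miR-29b 0.54 lower (SE 0.77, p = 0.514 by the same exact test). The latter difference turned to 0.064 higher without CTL4 and was -0.97 without AA4. Whether these arm ratios differ between the hairpins in their response was not tested.

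The other miRNAs linked to kidney fibrosis or TGF-beta signalling were examined from a list of 22, of which 20 had enough reads to be tested. In the AA group 4 were higher and 1 was lower, and 15 did not pass, where 16.3% of all tested miRNAs were called. The list was written with earlier results of these rats known, so that its count is not independent support for a direction. rno-miR-21, a miRNA that is raised in injured and fibrotic kidney, rose from 32390 ± 4536 to 128589 ± 51184 CPM (SD, n = 4 each; log2 fold change 1.99, SE 0.29, adjusted p = 0.0012 from edgeR). Its opposite arm rno-miR-21* rose from 27.6 ± 1.78 to 85.6 ± 31.9 CPM (adjusted p = 0.0023 from edgeR). rno-miR-132, known from pericytes and myofibroblasts, rose from 9.23 ± 2.90 to 37.0 ± 6.18 CPM (edgeR, adjusted p = 7.0e-04). rno-miR-199a-3p, of the stromal miR-199 and miR-214 cluster, rose with a log2 fold change of 0.65 (edgeR, adjusted p = 0.033) and rno-miR-204, an epithelial miRNA, fell by 0.80 (adjusted p = 0.034 from edgeR). These last calls were lost in 9 and 7 of the 16 alternative fits. The number of list members called was 3 without CTL1, CTL2, CTL4 or AA3 in turn, and 3 with no filter on reads.

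Like the miR-29 members, the epithelial miR-200 family and miR-141, which restrain the change of epithelial cells towards a mesenchymal form, were not called, with log2 fold changes of -0.34 for miR-200a, -0.27 for miR-200b, 0.42 for miR-200c, -0.07 for miR-429 and 0.13 for miR-141 (adjusted p-values of 0.21 or more from edgeR). The median log2 fold change of the list was 0.14, against 0.06 over all tested miRNAs.

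**Figure D3:**
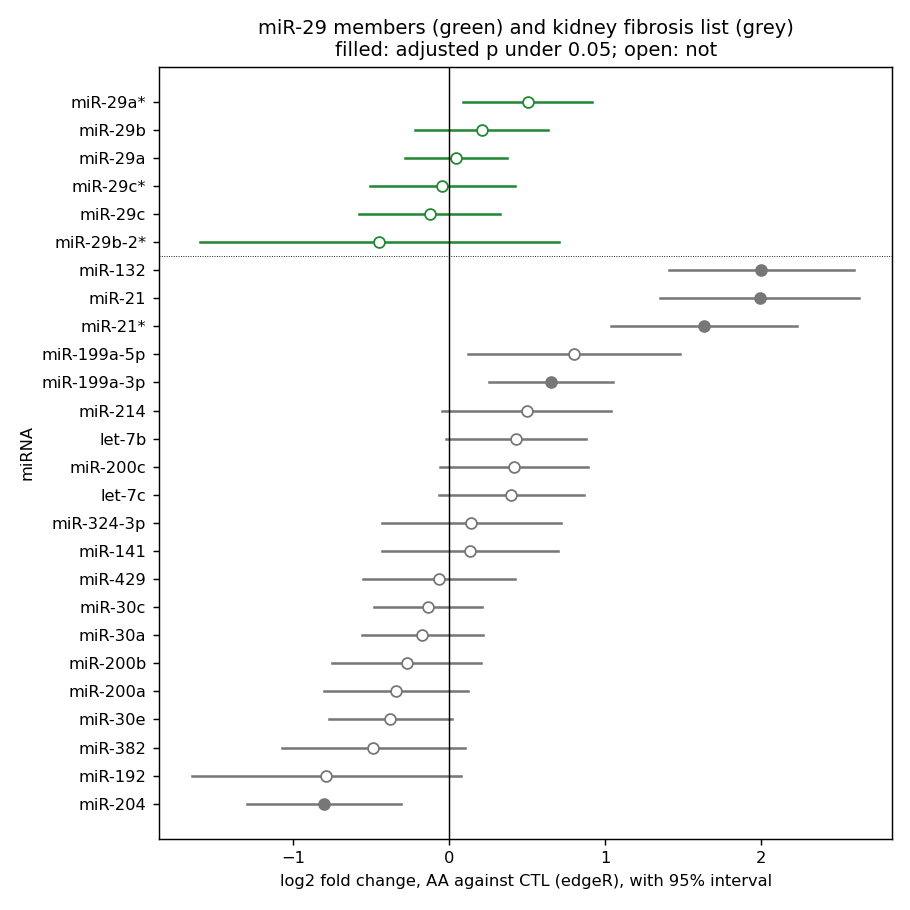
Log2 fold change of AA against CTL (horizontal axis, edgeR, with 95% interval) for the 6 tested miR-29 members in green and the 20 tested miRNAs of the kidney fibrosis list in grey. Filled points had an adjusted p under 0.05. All 6 miR-29 points are open, and 5 of the list are filled, with miR-132, miR-21 and miR-21* farthest from 0.

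The miRNAs with the pattern most like that of each mature member were sought among 113 miRNAs outside the family with a mean of at least 100 CPM, by the root mean square difference between log2 CPM profiles over the 8 libraries, each centred on its own mean. For rno-miR-29a the nearest were miR-181a at 0.0544 and miR-130a at 0.0891, where the median miRNA was at 0.334. For rno-miR-29b they were miR-130a at 0.0998 and miR-195 at 0.123 (median 0.404), and for rno-miR-29c they were miR-99a at 0.115 and miR-30c at 0.140 (median 0.446). Within the family the distances were 0.144 between rno-miR-29a and rno-miR-29b, 0.211 between rno-miR-29a and rno-miR-29c, and 0.242 between rno-miR-29b and rno-miR-29c. The distances within the family lay below the medians over the 113 miRNAs, but above each of the nearest distances outside the family given here. Those nearest distances are the smallest found among 113 miRNAs, whereas each family distance is a single fixed pair. The contrast therefore does not measure likeness within the family. All profiles share the same libraries and scaling factors, and these distances are a description with no test.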

How the data were processed

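Small RNA from 8 rat kidneys (4 AA, 4 CTL) was read on the Illumina Genome Analyzer II platform. Per the study's methods, the authors mapped reads of at least 17 bases with miRanalyzer and Bowtie to rat miRNAs of miRBase version 17 and deposited raw read counts per miRNA and library, without normalization. The submitters' processing notes also name DESeq. How reads matching several miRNAs were counted is not given in the sources used here. Each column carries a sample title, which gave group and number.

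The quasi-likelihood test of edgeR 4.0.16 (R 4.3.3, TMM scaling, Benjamini-Hochberg adjustment, threshold 0.05) was run over miRNAs that reached 10 reads in 4 or more libraries. The step was tested on simulated data whose changes were larger than those of the miR-29 members, and on simulated data with no change. It was not tested for changes of the members' size. SE is the size of the log2 fold change over the square root of F, and 95% intervals use the t quantile of the fit. DESeq2 1.42.0 was an alternative. Ratios used counts plus 0.5 read and the exact permutation test over libraries, two-sided, adjusted over 6 ratios. Libraries of a group differed by a chi-square of at least 437 per degree of freedom. These intervals carry the spread between libraries, whereas the limit for a count of 0 covers only counting error of reads, which PCR copies.

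The members, the lists and the tests were chosen with earlier results of these data known. The miRNAs named are all members, the called miRNAs and the miR-200 family of the fibrosis list, the neighbours in level, and the 2 nearest profiles of each mature member. miR-143, as the largest part of the stromal sum, and the rest of the stromal list are also named. That choice was made with the values already known. The miR-200 family values were chosen for print after they were seen. Of the fibrosis list, miR-433 and miR-211 had too few reads to be tested. Of the marker lists, miR-155 and miR-486 were not among the rows, none of the 2 endothelial, 2 red blood cell and 3 muscle miRNAs tested was called, and miR-122* and miR-133b were not tested. The alternatives were other scalings, tests and filters, the library number as a block, each library left out, the mature members summed and, chosen after the data were seen, the libraries numbered 1 to 3.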

Additional observations from a re-analysis of the deposited data

Results flagged for a closer look

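Over 26 groups of 4 libraries (6 members, their sum and 6 ratios in each group), 6 held an extreme library set apart from the other 3 by Dixon's criterion, which chance meets in about 1 in 20 groups. All 6 were in a library numbered 4, and the values are not independent, since several rest on the same reads.

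CTL4 was the lowest CTL library for rno-miR-29a at 3795 CPM, with the next at 4681, for rno-miR-29b at 919 CPM, with the next at 1332, and for the sum of the 3 mature members at 5176 CPM, with the next at 6535. For rno-miR-29b-2*, CTL4 was the highest CTL library at 8.80 CPM, with the next at 2.77, and AA4 the highest AA library at 5.39 CPM, with the next at 2.40. The log2 ratio of rno-miR-29b-2* to rno-miR-29b was -6.70 in CTL4, with the next CTL library at -8.89. The source of these values was not tested.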

How the results depend on the processing

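No member was called in 15 of the 16 alternative fits. The exception was rno-miR-29a* with total counts (edgeR log2 fold change 0.72, adjusted p = 0.038). Its direction was the same in all 16, with values of 0.31 to 0.72. The log2 fold change of rno-miR-29b, 0.21, ran from 0.066 without AA2 and 0.086 without CTL4 to 0.42 with total counts. That of rno-miR-29a was close to 0 and changed sign with DESeq2 size factors and with the Wald test (both -0.012), without the libraries numbered 4 (-0.034), and with single libraries left out, where it ran from -0.038 to 0.068. With total counts rno-miR-29c was at 0.089 and rno-miR-29c* at 0.18. rno-miR-29c* was at 0.0050 with the mature members summed, at 0.10 without the libraries numbered 4, and from -0.23 to 0.021 with 1 library left out. rno-miR-29b-2* ran from -1.07 to 0.27 with 1 library left out, with the positive value without CTL4. The difference of the summed level was 0.27 with total counts, against 0.06, since total counts lack the scaling factors. It was 0.0064 with DESeq2 size factors, -0.0088 without the libraries numbered 4 and -0.040 to 0.085 with 1 library left out.

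The ratios are no measure of stability, since the smallest exact p is 0.125 with the block, 0.10 for 3 against 3 and 0.0286 otherwise, before adjustment over 6. With 1 library left out, the arm ratio of miR-29c ran from -0.010 to 0.20 and that of miR-29b-2* to miR-29b from -0.97 to 0.064. The count of all miRNAs called was 60, and 35 to 51 with 1 library left out (35 without CTL2 and 37 without CTL1).

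Titles give the numbers 1 to 4 within each group, but pairs of libraries with equal numbers, each taken as a deviation from its group mean, correlated at 0.0608, 0.185, 0.116 and 0.300 across 367 miRNAs. With the replicate block, 78 miRNAs were called and 0 members, and rno-miR-29a* was at 0.49 (adjusted p = 0.092 from edgeR). Each of the AA libraries numbered 2 to 4 correlated best with the CTL library of its own number, and AA1 did not. Within equal numbers, 5 of the 6 ratios had 1 sign in all 4 pairs (exact p = 0.125, the smallest 4 pairs allow), the arm ratio of miR-29c being the exception. These ratios are not independent, since they share members and miR-29b to miR-29c follows from the other ratios of the mature members. The labels do not say that the numbers pair the rats.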
